A study of Schizosaccharomyces pombe with 2 samples.

Results

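Premature poly(A) sites are 3′ ends of polyadenylated RNA that lie inside the protein-coding part of a gene, before its stop codon. Such sites were taken here from the deposited positions of both libraries that fell on the same strand as, and inside, a coding segment of the RefSeq annotation of fission yeast, Schizosaccharomyces pombe, and inside no other gene on that strand. Positions within 24 nt of the highest one were gathered into a cluster, and a cluster needed 5 or more reads summed over both libraries. This gave 2959 sites in 1801 of 5113 coding genes (35.2%), out of 38719 clusters of 5 or more reads on the 3 nuclear chromosomes, of which 21110 lay past the stop codon of a coding gene. At the limit, 512 sites had exactly 5 reads and 816 coding clusters had 4 and were left out.

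The series holds 2 libraries, nmt1-SEB1 and wild type, made from total RNA of cells grown in minimal medium with thiamine. The name nmt1-SEB1 gives seb1 under the nmt1 promoter, which thiamine represses; other label fields call the same sample a knock-out and the series a knockdown. The labels do not give the number of cultures or clones behind a library. Reads that support a poly(A) site were counted at each position. The nmt1-SEB1 library had 3373116 nuclear reads and the wild-type library 2697953, so that 1 read was worth 0.296 RPM (reads-per-million of nuclear reads) in nmt1-SEB1 against 0.371 RPM in wild type. Each group is a single library, so nothing below has a replicate check, and comparisons are of these libraries and not of the conditions. Intervals are 95% and cover counting error only, since no molecular identifiers are named and copies made by PCR would count as separate reads. The targeted gene had 822 reads (244 RPM) in nmt1-SEB1 against 1837 (681 RPM) in wild type over its coding sequence and the region past its stop codon, a ratio of 0.358 (0.329 to 0.389).

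Seb1 is an RNA-binding protein of the Nrd1 family that travels with RNA polymerase II and binds nascent RNA near poly(A) sites, where it is known to recognise GUA and UGUA. A poly(A) site is cut by the cleavage and polyadenylation complex, which reads a signal of the AAUAAA kind shortly before the site. A transcript cut inside its coding sequence has no stop codon and cannot encode the whole protein. The series addresses what happens to RNA 3′ ends when Seb1 is depleted.

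The sequences of 7 sites show the forms described below, read 5′ to 3′ on the gene's strand. The capital single base is the site itself, the last base aligned. Capitals elsewhere mark AATAAA or AATGAA in the 50 nt before the site and TGTA in the 100 nt after it, and each sequence is cut at the edge of its coding segment. The first 3 are sites close behind a start codon that were higher in nmt1-SEB1, at I:3388241-3388273 (plus strand), II:2139862-2139901 (plus) and II:1108728-1108872 (plus) of the reference genome.
sec17: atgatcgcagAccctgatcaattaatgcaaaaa
mtd1: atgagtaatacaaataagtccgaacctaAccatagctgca
dus2: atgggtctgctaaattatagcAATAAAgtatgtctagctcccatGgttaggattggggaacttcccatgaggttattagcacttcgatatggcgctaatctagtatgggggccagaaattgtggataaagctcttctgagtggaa
The next is a site far inside the coding sequence that carried most reads of its gene in both libraries, at II:3462198-3462348 (plus). It has AATAAA before the site and no TGTA after it.
csi1: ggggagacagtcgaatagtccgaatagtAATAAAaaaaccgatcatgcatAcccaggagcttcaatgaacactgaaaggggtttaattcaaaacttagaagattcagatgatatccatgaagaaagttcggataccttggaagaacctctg
The last 3 were lower in nmt1-SEB1, at II:3134492-3134642 (minus), I:4790720-4790870 (plus) and I:2679854-2680004 (minus), and each has TGTA after it.
sep1: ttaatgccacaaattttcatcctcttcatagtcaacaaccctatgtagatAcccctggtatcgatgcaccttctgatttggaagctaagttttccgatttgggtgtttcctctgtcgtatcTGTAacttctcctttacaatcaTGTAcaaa
pet1: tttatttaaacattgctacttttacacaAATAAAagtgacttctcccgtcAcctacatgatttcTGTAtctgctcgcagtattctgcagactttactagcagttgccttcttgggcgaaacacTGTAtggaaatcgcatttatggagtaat
cdr1: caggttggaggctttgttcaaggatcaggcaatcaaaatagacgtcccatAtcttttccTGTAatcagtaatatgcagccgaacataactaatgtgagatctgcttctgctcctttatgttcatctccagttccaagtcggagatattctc

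Reads inside coding sequence were a small part of both libraries. They numbered 61352 in nmt1-SEB1, or 1.82% of nuclear reads (Wilson interval 1.80 to 1.83), and 40561 in wild type, or 1.5% (1.49 to 1.52), a ratio of 1.21 (1.19 to 1.23). The 2959 sites held 49546 of these reads in nmt1-SEB1 against 32201 in wild type. Most sites were small: the median was 10 reads summed, 1448 sites had 5 to 9 reads, 122 had 100 or more and 6 had 1000 or more. The 12 sites with the highest mean RPM held 26.8% of the site reads in nmt1-SEB1 against 15.2% in wild type. A read was seen at 2668 sites in nmt1-SEB1 and at 2405 in wild type, and 554 sites had reads in nmt1-SEB1 alone and 291 in wild type alone. With nmt1-SEB1 thinned to the wild-type depth, 2667 sites remained, with a read at 2340 in nmt1-SEB1 against 2250 in wild type. The larger number of sites in nmt1-SEB1 thus shrank at equal depth.

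Sites went both ways between the libraries. A site was called where 20 or more reads were summed over both libraries, its RPM differed by 2-fold or more and the exact conditional (Clopper-Pearson) interval of the ratio excluded 1. Of the 2959 sites, 695 had 20 reads, and of these 271 were higher in nmt1-SEB1 (39.0%), 216 lower (31.1%) and 208 neither. Among all 16116 nuclear clusters of 20 or more reads, 50.9% were higher and 24.1% lower, and past the stop codon 40.9% of 10832 clusters were higher and 29.8% lower. The median log2 ratio, with 0.5 read added, was 0.37 for coding sites of 20 or more reads, 0.34 for clusters past the stop codon and 1.17 for all nuclear clusters. The shares inside coding sequence were thus near those past the stop codon, and the share higher was below that of all nuclear clusters. TMM and median-of-ratios scaling over coding genes shift every log2 ratio by -0.12 and -0.13, and the counts were then 263 higher with 225 lower, and 260 higher with 226 lower.

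Direction varied with position in the coding sequence, here cut into 10 bins of equal length per gene. Sites near the start codon were mostly higher in nmt1-SEB1 and sites near the stop codon mostly lower. Bin 1 held 569 sites, with 21250 reads in nmt1-SEB1 against 3522 in wild type, which is 42.9% and 10.9% of all site reads of these libraries. Of its 166 sites of 20 or more reads, 118 were higher (71.1%) and 12 lower (7.23%). In bin 2 40 of 75 were higher and 14 lower. From bin 5 on, lower sites outnumbered higher ones in each bin, with 16 higher and 25 lower of 56 in bin 5. Bin 10 held 329 sites, with 2094 reads in nmt1-SEB1 against 5356 in wild type, or 4.23% and 16.6% of site reads. Of its 68 sites of 20 or more reads, 4 were higher (5.88%) and 47 lower (69.1%). The ratio of summed RPM, nmt1-SEB1 over wild type, was 4.83 in bin 1 and 0.313 in bin 10.

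**Figure D1:**
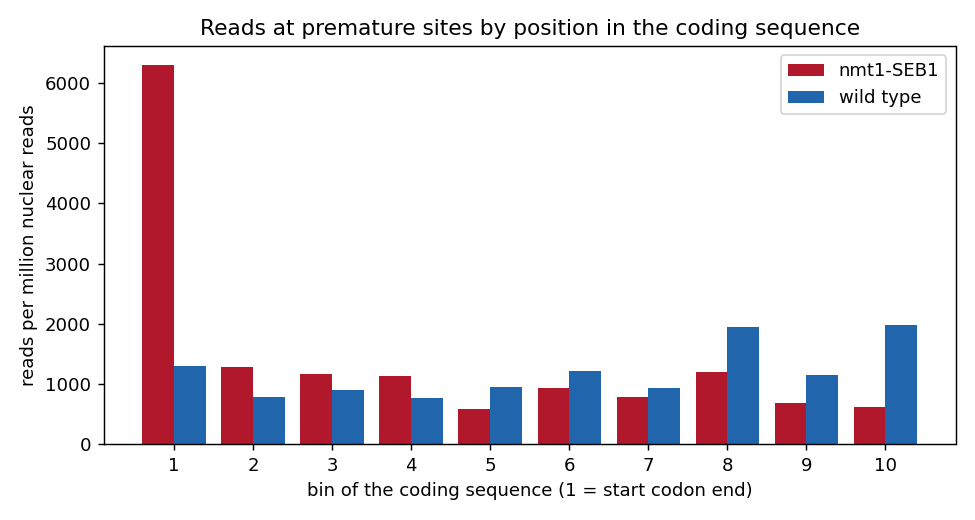
Reads at premature sites, in RPM, summed in each bin of the coding sequence for nmt1-SEB1 (left bars) and wild type (right bars), 1 library each. In bin 1 the sum was 6300 RPM in nmt1-SEB1 against 1305 in wild type, and in bin 10 621 RPM in nmt1-SEB1 against 1985 in wild type.

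**Figure D2:**
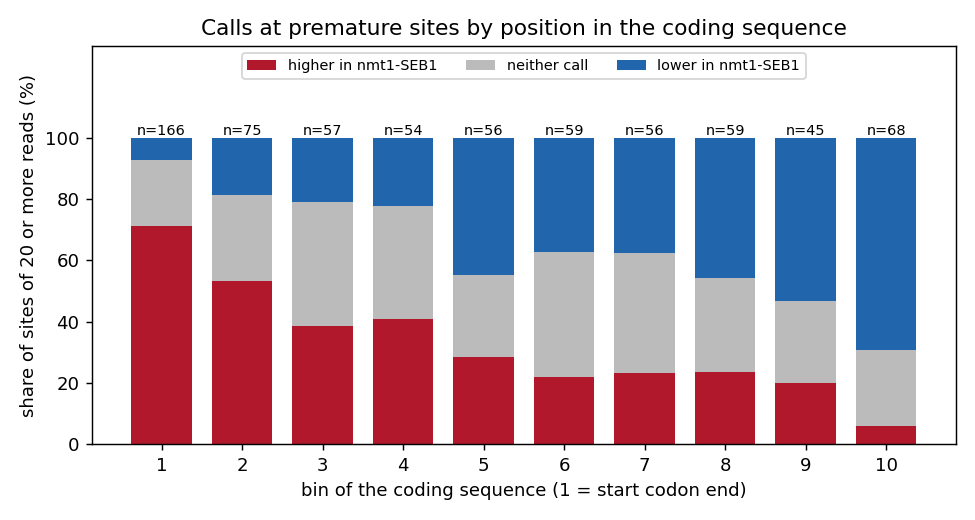
Share of sites of 20 or more reads that were higher, neither or lower in nmt1-SEB1, by bin of the coding sequence, with the number of sites above each bar. The share called higher was 71.1% in bin 1 and 5.88% in bin 10.

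Sites were dense at the start. The first 24 nt of coding sequences make up 1.72% of coding bases and held 223 sites (7.54%), or 1.82 per kb, against 0.414 per kb over all coding bases. The first 100 nt held 506 sites (0.990 per kb) and the last 100 nt held 294 (0.575 per kb). Some of these could be the flank of a cluster outside the coding sequence, so the positions around each site were examined. At 47 of 2959 sites a higher position lay within 24 nt outside the coding sequence, before the start codon at 19 and past the stop codon at 15. Without these 47 sites, 113 of 159 in bin 1 were higher and 11 lower, and 4 of 66 in bin 10 were higher and 46 lower. Sites within 10 nt of an intron made up 7.15% of the 1497 sites in genes with introns, against 3.26% of the coding bases of those genes. With them also left out, 68.7% of 147 sites in bin 1 were higher and 7.48% lower, and in bin 10 4 of 66 were higher and 46 lower.

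Single sites weighed on the sums of reads. The 3 largest sites of bin 1, in sec17, mtd1 and meu14, held 7374 reads in nmt1-SEB1 against 14 in wild type. Without them bin 1 had 13876 reads in nmt1-SEB1 against 3508 in wild type, a ratio of 3.16, and all sites together took 1.25% and 1.19% of nuclear reads in these libraries. Without the coding reads of those 3 genes, the ratio of coding reads was 1.06 (1.05 to 1.08).

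Within single genes the order was mixed. Of 99 genes with 2 or more sites of 20 or more reads, the first site had the higher ratio in 52, and the intervals of the first and last site were apart in 24 genes with the first higher and in 16 with the last higher. Among 245 genes with 20 or more coding reads in each library, the mean position of the coding ends was 10 or more points of coding length nearer the start codon in nmt1-SEB1 in 65 and nearer the stop codon in 15, and within 10 points in 165. The median difference was -1.47 points. dop1, a gene of the DOPEY family with a coding length of 5064 nt, had both kinds of site: its site at coding base 1383 had 68 reads in nmt1-SEB1 against 16 in wild type, and its site at base 4193 had 87 in nmt1-SEB1 against 390 in wild type.

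Higher sites in bin 1 lay mostly in genes that follow another coding gene closely on the same strand. Of the sites in bin 1, 62.4% were in genes with such a gene ending up to 1000 nt upstream, against 40.3% of all coding genes. Here and below, a neighbour that overlaps the gene start was not counted as upstream. Of 65 sites of 20 or more reads with the upstream coding gene ending within 250 nt of the gene start, 56 were higher. All 186 bin 1 sites of that class, small ones included, had 10829 reads in nmt1-SEB1 against 588 in wild type. Between 250 and 500 nt 27 of 31 sites of 20 or more reads were higher. Within 1000 nt 93 of 115 were higher (80.9%), and 25 of 51 (49.0%) where the nearest coding gene ended further upstream. The ratio of summed RPM, over all bin 1 sites, was 7.45 with an upstream coding gene within 1000 nt and 1.81 without. The 3 largest sites of bin 1 all had such a gene, and sec17 and mtd1 had it within 250 nt. These 3 sites held 7374 of the 17548 reads of the class within 1000 nt in nmt1-SEB1, and 14 of 1884 in wild type. Outside bin 1, 85 of 246 were higher with an upstream coding gene within 1000 nt and 68 of 283 without. Counted from the upstream gene's annotated end to the site itself, up to 250 nt past that end 23 of 27 sites of bin 1 were higher and 4 of 4 in the other bins, and between 250 and 500 nt 48 of 54 and 21 of 35. Beyond 2000 nt it was 23 of 43 in bin 1 and 78 of 332 elsewhere. With any annotated gene taken as the upstream neighbour, non-coding ones included, 71.0% of 145 bin 1 sites with a gene end within 1000 nt were higher and 71.4% of 21 without, while the ratio of summed RPM was 5.09 with such a gene end and 3.09 without. By distance, 60 of 72 were higher within 250 nt, 32 of 44 between 250 and 500 nt and 11 of 29 between 500 and 1000 nt. Further away it was 7 of 12 between 1000 and 2000 nt and 8 of 9 beyond 2000 nt. The ratios over all bin 1 sites of these classes were 11.2, 5.19, 1.13, 1.79 and 5.61, where the first takes in sec17 and mtd1. Whether reads at these sites come from transcripts that began in the upstream gene was not tested.

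Among the 12 sites with the highest mean RPM, 6 were called higher, 3 lower and 3 neither. The largest higher one lay in sec17, which encodes alpha-SNAP, a factor of membrane fusion: 3079 reads in nmt1-SEB1 against 3 in wild type at coding base 11, a ratio of 821 (281 to 3983). The annotated end of inv2 lies 32 nt upstream of this site, and inv2 itself had 69 reads in nmt1-SEB1 against 26 in wild type. The inv2 count stops before sec17, which begins 3 nt past the inv2 end. Reads that end inside sec17 are therefore not in it, whichever gene they began in. The site in mtd1, annotated as a methylenetetrahydrofolate reductase gene, had 2585 reads in nmt1-SEB1 against 10 in wild type at coding base 29. It lies 142 nt past the end of emc3. meu14, which acts in sporulation, had 1710 reads in nmt1-SEB1 against 1 in wild type at base 98, and only 8 and 4 reads past its stop codon in these libraries. These 3 sites were nearly absent from wild type.

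rrn7, for an initiation factor of RNA polymerase I, had 879 reads in nmt1-SEB1 against 7 in wild type at base 115. cdd1, for a cytidine deaminase, had 691 reads in nmt1-SEB1 against 36 in wild type at base 137 of 402. Both sites lie within 10 nt of an intron. SPCC191.04C, of unknown function, had 576 reads in nmt1-SEB1 against 3 in wild type at base 72. The sites of csi1, atg44 and atg7 were used in both libraries. csi1, which helps to tether centromeres to the spindle pole body, had 1072 reads in nmt1-SEB1 against 590 in wild type at base 809 of 1602, a ratio of 1.45 (1.31 to 1.61). atg7, for the activating enzyme of autophagy, had 351 reads in nmt1-SEB1 against 290 in wild type at base 576 of 1950, a ratio of 0.968 (0.826 to 1.13). atg44, for the mitochondrial fission factor of mitophagy, had 483 in nmt1-SEB1 against 219 in wild type at base 21. In nmt1-SEB1 these 3 sites held 66.3% to 84.6% of their genes' reads, and in wild type 65.9% to 90.3%.

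The 3 lower sites of that group were late in their coding sequences. SPBC29A3.21 had 1490 reads in nmt1-SEB1 against 2492 in wild type at base 235 of 303, a ratio of 0.478 (0.448 to 0.510). SPAPB18E9.05C had 253 in nmt1-SEB1 against 858 in wild type at base 268 of 273, 5 nt before its last coding base. dop1 is given above. SPBC29A3.21 and SPAPB18E9.05C encode uncharacterized proteins and have no annotated bases past the stop codon. Genes of that kind numbered 385 and held 187 sites, with 9% of the site reads in nmt1-SEB1 against 17.0% in wild type. Without these 2 genes, the others held 5.66% of the remaining site reads in nmt1-SEB1 against 6.65% in wild type.

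**Figure D3:**
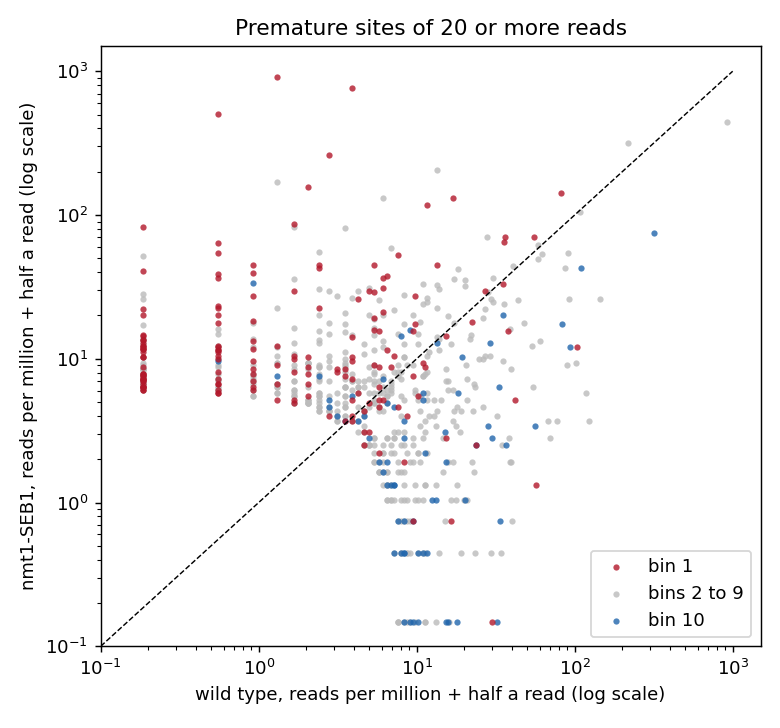
Premature sites of 20 or more reads, in RPM with 0.5 read added, nmt1-SEB1 on the vertical and wild type on the horizontal log axis, 1 point per site. Sites of bin 1 lie mostly above the dashed line of equal level and sites of bin 10 mostly below it, and the columns at the left edge are sites with 0 or few wild-type reads.

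The 10 largest ratios among called sites of 50 or more reads all lay in bins 1 and 2, and all 10 genes had a coding gene ending within 646 nt upstream. The site of dus2, for a tRNA dihydrouridine synthase, had 276 reads in nmt1-SEB1 against 0 in wild type. That is 73.6-fold higher against a floor of 3 reads per library, which leaves out the counting error of the 276. The lower limit of its ratio interval was 59.4. In the same form, trs31, for a subunit of the TRAPP vesicle-tethering complex, had 175 and 0, and rpn3, for a proteasome lid subunit, had 138 and 0, in nmt1-SEB1 and wild type. The rpn3 site lies within 10 nt of an intron. mug5 (95 reads in nmt1-SEB1), gls1 (87), SPAC694.03 (74), swd2 (67) and mrpl8 (57) had 0 reads in wild type too, and meu14 and sec17 complete the list. Over coding sequence and the region past the stop codon, trs31, mug5, mrpl8, swd2 and meu14 had 0 to 6 reads in wild type. In nmt1-SEB1 they had 72 to 1721, totals that include the reads of the chosen sites themselves. Past the stop codon alone, trs31 and mrpl8 had 0 reads in both libraries. There mug5 had 21 in nmt1-SEB1 against 0 in wild type, swd2 2 and 3, and meu14 8 and 4. Over both regions dus2, gls1, SPAC694.03, sec17 and rpn3 had 47 to 6580 reads in wild type. gls1 encodes the glucosidase that starts the trimming of N-glycans, swd2 a subunit of the Set1 histone methyltransferase complex and mrpl8 a mitochondrial ribosomal protein. Of these 10 sites, 1 had TGTA in the next 100 nt. Of all 2959 sites, 40.7% had TGTA there, 19.2% lay in bin 1 and 10.2% in bin 2. A coding gene ended within 1000 nt upstream for 49.0% of them.

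Among the 10 smallest ratios, 8 lay in genes whose nearest upstream coding gene ended more than 2000 nt away, 6 lay in the last 4 bins and 8 had TGTA in the next 100 nt. Of all 2959 sites, 41.0% had the nearest upstream coding gene that far away and 40.7% had TGTA. Bins 7 to 10 held 8.45%, 9.02%, 9.02% and 11.1% of all sites. ekc1, for a protein phosphatase regulatory subunit, had 0 reads in nmt1-SEB1 against 86 in wild type, 35.8-fold lower against the same floor. The upper limit of its ratio interval was 0.0351. zrt1, for a zinc uptake transporter of the plasma membrane, had 0 in nmt1-SEB1 against 80 in wild type at base 51. That is 33.3-fold lower against the floor, with an upper limit of the ratio interval of 0.0377. Past the stop codon zrt1 had 122 reads in nmt1-SEB1 against 3558 in wild type, so reads of the whole gene were fewer. tps1, for trehalose phosphate synthase, had 1 read in nmt1-SEB1 against 92 in wild type, and pet1, for a phosphoenolpyruvate transporter, 2 in nmt1-SEB1 against 107 in wild type. sep1, for a forkhead transcription factor, had 12 reads in nmt1-SEB1 against 334 in wild type, a ratio of 0.0287 (0.0147 to 0.0509). The list also holds mmp1 (1 in nmt1-SEB1, 79 in wild type), SPAC57A7.05 (1 and 63), SPBC660.17C (2 and 90), SPCC794.16 (4 and 152) and a second site of SPAPB18E9.05C (1 and 51), each given as nmt1-SEB1 and wild type.

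A site can change because its gene does, so the premature share of each gene was taken: coding reads divided by coding reads plus those downstream of the stop codon, up to 1000 nt beyond the gene, or as far as another gene on that strand. Where each library had at least 20 such reads, in 3843 genes, the median share was 1.38% in nmt1-SEB1 against 1% in wild type, and the mean 8.24% in nmt1-SEB1 against 8.52% in wild type. Over 50% of reads were premature in 160 genes in nmt1-SEB1 against 195 in wild type, 97 of them in both. No coding read was seen in 1031 genes in nmt1-SEB1 against 1358 in wild type. Such a count of empty genes depends on depth, which was greater in nmt1-SEB1, and is not given at equal depth. A gene was called where the shares differed by 2-fold or more and their Wilson intervals did not overlap. Because of the 2-fold limit, a gene with a share over 50% in wild type could not be called higher, and one with a share over 50% in nmt1-SEB1 could not be called lower. By this rule 284 genes were higher (7.39%) and 323 lower (8.4%) in nmt1-SEB1. Of the 1506 tested genes with a premature site, 247 were higher (16.4%) and 277 lower (18.4%). With reads counted only to 200 nt past the gene end, 340 genes were higher and 257 lower, so which direction had more genes depended on that window.

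The 8 genes named next were chosen for the largest gains in premature share. Of sec17's reads, 93.6% (92.7 to 94.4) were premature in nmt1-SEB1 against 1.84% (0.628 to 5.27) in wild type. The share was 82.0% in nmt1-SEB1 against 1.72% in wild type for spp2, the large subunit of DNA primase, 83.6% in nmt1-SEB1 against 3.41% in wild type for mtd1, and 74.6% in nmt1-SEB1 against 2.11% in wild type for taf9, a subunit of TFIID and SAGA. mrs6, for the Rab escort protein, had 84.2% in nmt1-SEB1 against 24.4% in wild type, and its main site at coding base 14 had 524 and 5 reads in these libraries. irc6 had 65.2% in nmt1-SEB1 against 10.5% in wild type, elc1, for elongin C, 54.7% and 1.32%, and mcm3, for a subunit of the replicative helicase, 55.3% and 2.71%, again nmt1-SEB1 before wild type. The irc6 share depended on where counting stopped. With long non-coding RNA genes on its strand ignored, it was 37.2% in nmt1-SEB1 against 10.2% in wild type. Reads past its stop codon were then 123 rather than 39 in nmt1-SEB1, and 97 rather than 94 in wild type. In sec17 the reads past the stop codon were 211 in nmt1-SEB1 against 160 in wild type, while in taf9 they were 106 and 279 and in mcm3 80 and 215. Among coding genes that end before the gene's start, the nearest ended 7536 nt upstream of mrs6 and 17511 nt upstream of irc6. A neighbour that overlaps the gene start was not counted, so closeness in that form was not examined.

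Another 8 genes were chosen for the largest falls in premature share. ppm2, for a tRNA methyltransferase, had 8 coding reads of 142 in nmt1-SEB1 (5.63%, 2.88 to 10.7) and 60 of 61 in wild type (98.4%, 91.3 to 99.7). Its reads past the stop codon were 134 in nmt1-SEB1 against 1 in wild type. gwt1, of GPI anchor synthesis, had 3.08% in nmt1-SEB1 against 69.8% in wild type, and cdr1, a kinase that acts on Wee1 at the entry to mitosis, 0.535% in nmt1-SEB1 against 64.1% in wild type. The others were SPCC1020.13C, a phospholipase gene (17.9% in nmt1-SEB1, 84.1% in wild type), SPBC660.17C (3.39% and 67.5%), mmp1 (17.3% and 81.1%), the kinase gene ppk22 (10.2% and 72.8%) and the transporter gene amf1 (37.2% and 97.8%), with nmt1-SEB1 given before wild type. Some of these premature ends lay at the very end of the coding sequence. In SPBC660.17C a site 5 nt before the last coding base held 90 of 102 wild-type coding reads. In gwt1 a site 1 nt before the last coding base held 22 of 60. In each of the 8 genes the reads past the stop codon were more numerous in nmt1-SEB1 than in wild type.

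Some genes ended mostly inside their coding sequence in wild type. Of the 6 with most wild-type reads, SPBC29A3.21 had a premature share of 97.7% in nmt1-SEB1 against 99.5% in wild type, SPAPB18E9.05C 58.0% in nmt1-SEB1 against 92.7% in wild type, and csi1 82.1% in nmt1-SEB1 against 66.5% in wild type. These 3 differed by less than 2-fold, and none of the 6 genes could be called higher. sep1 (8.91% in nmt1-SEB1, 60.8% in wild type), lsm2, for a core protein of the U6 snRNP (15.2% and 55.0%), and pmd1, for a leptomycin exporter (27.3% and 70.6%), were called lower. The largest site of pmd1 is at its first coding base and flanks a higher position before the start codon.

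Longer genes had sites more often, but not more per length. In 5 equal classes of coding genes from the shortest to the longest, with median coding lengths of 387 to 2664 nt, 20.7%, 23.9%, 29.8%, 40.8% and 60.9% of genes had a site. Sites per kb were 0.691 in the shortest class and 0.379 to 0.432 in the others. At a like number of reads the rise with length stayed: in the middle one of 5 classes of genes by reads, 25.1% of the shortest and 71.3% of the longest had a site. The mean premature share was 3.95% in nmt1-SEB1 against 3.57% in wild type in the shortest class, and 16.3% in nmt1-SEB1 against 18.3% in wild type in the longest. Genes with a lower share in nmt1-SEB1 made up 4.2% of those tested in the shortest class and 15.3% in the longest, and genes with a higher share 5.88% and 8.58%.

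**Figure D4:**
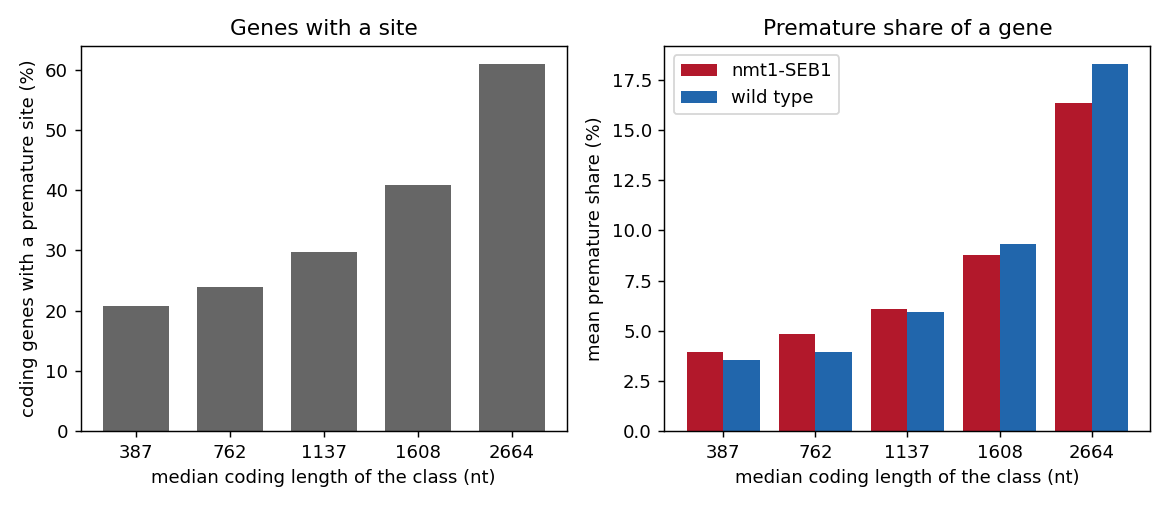
Left, percentage of coding genes with a premature site in each class of coding length, from 20.7% to 60.9%. Right, mean premature share of tested genes in the same classes for nmt1-SEB1 (left bars) and wild type (right bars), 1 library each, with 16.3% in nmt1-SEB1 against 18.3% in wild type in the longest.

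The gene with most sites was dhc1, the dynein heavy chain that moves the nucleus in meiotic prophase, with 12 sites over 12591 nt and a premature share of 79.0% in nmt1-SEB1 against 96.9% in wild type. gfh1, est1, vps1302 and rrn7 had 8 sites each. est1, of telomerase, had a share of 52.5% in nmt1-SEB1 against 8.05% in wild type, and gfh1, of the gamma-tubulin complex, 64.9% in nmt1-SEB1 against 85.6% in wild type. Over all genes 1130 had 1 site, 394 had 2 and 26 had 6 or more.

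The share of sites with a poly(A) signal was near that of clusters past the stop codon. AATAAA or AATGAA was found in the 50 nt before 21.3% of sites, 20.7% of clusters past the stop codon and 5.89% of all coding bases, on the gene's strand. For sites near the start codon these 50 nt reach before the coding sequence. The signals stood before 29.5% of higher, 25.5% of neither and 17.1% of lower sites. A and T together made up 66.0% of the 50 nt before a site, against 60.6% before all coding bases and 71.3% before clusters past the stop codon. Runs rich in A, which can prime reverse transcription, were in or beside 7.27% of sites and 7.86% of coding bases, defined as 6 A in a row or 7 in 10 from 10 nt before to 10 nt after the site.

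The element TGTA, read as UGUA in RNA, divided the sites by direction. It was found in the 100 nt after 58.8% of lower, 33.2% of neither and 29.2% of higher sites, against 28.8% of all coding bases and 54.1% of clusters past the stop codon. Because those 100 nt can reach past the stop codon, sites 100 nt or more before the coding end were taken alone, and the shares were 60.6% of lower, 34.5% of neither and 29.4% of higher sites. In bins 2 to 9 of these they were 62.4%, 36.8% and 29.7%. GTA, which TGTA contains, followed 94.4% of lower and 69.7% of higher sites, against 70.2% of coding bases. Turned round, of 275 sites with TGTA 79 were higher and 127 lower, and of 420 without it 192 were higher and 89 lower. Control orders of the same bases divided them less: TTGA followed 46.8% of lower and 56.8% of higher sites, GATT 40.3% and 43.2%, AGTT 37.5% and 39.9%, and ATGT 47.2% and 38.7%. A match is a description of the sequence and does not show binding.

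**Figure D5:**
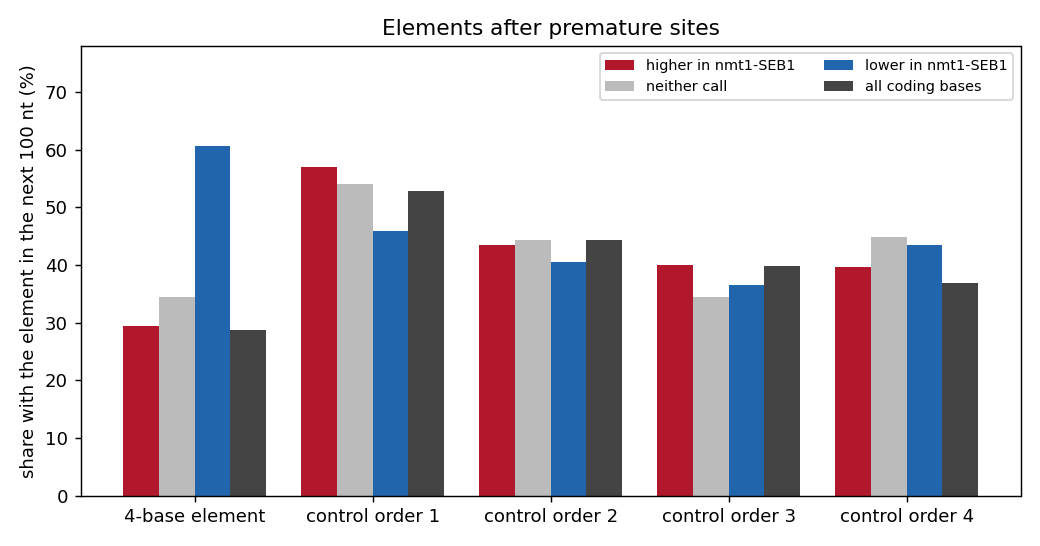
Percentage of sites 100 nt or more before the coding end that have a 4-base element in the next 100 nt, by call, and of all coding bases. The first group of bars is the element described in the text, with 29.4% of higher and 60.6% of lower sites, and the other 4 are control orders of its bases, where lower sites stay between 36.5% and 45.9%.

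By function, premature sites were found in every list of genes examined except the Tf2 transposons. Among cell surface and cell wall glycoproteins 20 of 34 genes had a site (58.8%), among Mmi1-regulated meiotic genes 10 of 17 (58.8%), among dynein, kinesin and myosin motors 11 of 20 (55.0%), among DNA helicases, repair and rad genes 41 of 80 (51.2%), among E3 ubiquitin ligases 35 of 69 (50.7%) and among protein kinases 47 of 94 (50%), against 35.2% of all coding genes. Median coding lengths of these lists were 1455 to 2476 nt, against 1137 nt for all coding genes. Transcription factors had sites in 53 of 120 genes (44.2%), splicing factors in 37 of 92 (40.2%), heat shock and chaperone genes in 11 of 30 (36.7%) and nuclear exosome and surveillance genes in 8 of 23 (34.8%). Lower shares were seen for glycolytic enzymes (5 of 16), membrane transporters (61 of 200), histones (3 of 10), mitochondrial ribosomal proteins (16 of 54), mug and meu genes (30 of 110), aminoacyl-tRNA synthetases (9 of 35), translation factors (14 of 56), the proteasome (11 of 44), cytosolic ribosomal proteins (31 of 142) and amino acid synthesis (15 of 70). Per kb of coding sequence the order of the lists was different, with 0.414 sites over all coding genes. Among lists with lower shares, histones had 0.797, mitochondrial ribosomal proteins 0.628, cytosolic ribosomal proteins 0.587 and mug and meu genes 0.467. The others of these had 0.177 to 0.369. Among lists at 50% or more, wall glycoproteins had 0.381 and the others 0.440 to 0.842. The 13 Tf2 genes had no site, but only 1 of them had enough reads to be tested.

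Calls of the premature share went both ways in most lists. With higher genes first, they were 9 and 12 of 91 transcription factors tested, 11 and 15 of 146 membrane transporters, 6 and 9 of 73 protein kinases, 6 and 9 of 72 splicing factors, 5 and 9 of 55 helicase and repair genes, 4 and 4 of 59 ubiquitin ligases, 1 and 1 of 14 motors, 2 and 1 of 29 wall glycoprotein genes, and 3 and 5 of 43 mug and meu genes. They were 6 and 10 of 140 ribosomal proteins, 1 and 3 of 48 translation factors, 1 and 4 of 28 synthetases, 2 and 1 of 14 glycolytic enzymes, 2 and 2 of 26 chaperones, 2 and 2 of 41 proteasome genes, 3 and 1 of 41 mitochondrial ribosomal proteins, 4 and 1 of 66 genes of amino acid synthesis, 1 and 0 of 10 histones, 1 and 0 of 20 surveillance genes, and 0 and 1 of 7 Mmi1-regulated genes. Against 7.39% and 8.4% of all genes tested, most of these differ by 1 or a few genes.

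Single genes of the lists show the range. In splicing, smg1, for a core Sm protein, had a premature share of 47.7% in nmt1-SEB1 against 6.69% in wild type, opposite to lsm2. Among transporters, pdt1, for a manganese transporter, had 57.0% in nmt1-SEB1 against 13.6% in wild type, opposite to pmd1. Among kinases cka1, the catalytic subunit of casein kinase 2, had 29.1% in nmt1-SEB1 against 4.09% in wild type, and ppk18 had 84% and 62%, less than 2-fold apart. In repair, rad15, the helicase of TFIIH, had 4.67% in nmt1-SEB1 against 52.6% in wild type, and rad57, of recombination, 79.9% in nmt1-SEB1 against 95.5% in wild type, less than 2-fold apart. mrps16, of the mitochondrial ribosome, had 0.251% in nmt1-SEB1 against 55.2% in wild type, where 37 of its 67 wild-type reads were premature. Among translation factors hbs1, of ribosome rescue, had 8.62% in nmt1-SEB1 against 69.8% in wild type, and mef2 had 18 coding reads in nmt1-SEB1 against 19 in wild type with none past its stop codon.

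The most abundant messages had few premature reads. All cytosolic ribosomal protein genes together had 0.102% in nmt1-SEB1 against 0.116% in wild type, and glycolytic enzymes 0.0424% in nmt1-SEB1 against 0.0508% in wild type. The enolase gene eno101 had 1.23% in nmt1-SEB1 against 0.415% in wild type, with sites at coding bases 22 and 50. tpi1, for triosephosphate isomerase, had 2.69% in nmt1-SEB1 against 4.46% in wild type. rpl102 had 18.2% in nmt1-SEB1 against 39.8% in wild type, with a large site that lies before an A-rich stretch, and rpl1902 had 2.16% and 0.842%. Coding reads of rpl1902 were 61 in nmt1-SEB1 against 128 in wild type, and reads past its stop codon 2760 and 15066. eno101, rpl102, rpl1902 and the histone H3 gene hht2 (8.99% in nmt1-SEB1, 4.97% in wild type) have near-identical copies, so reads may be split between copies and their values are uncertain. hhf3, for histone H4, had 3.65% in nmt1-SEB1 against 2.84% in wild type, with the same limit.

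In the other lists the genes with most coding reads were these. hsp104, a disaggregase, had 0.981% in nmt1-SEB1 against 2.08% in wild type, and the chaperonin gene cct8 15.3% in nmt1-SEB1 against 25.1% in wild type. The proteasome gene rpn3 had 13.2% in nmt1-SEB1 against 0.0152% in wild type, from the site beside an intron. Its partner rpn2 had 22.1% in nmt1-SEB1 against 14.6% in wild type. The alpha-glucan synthase gene ags1 had 21.4% in nmt1-SEB1 against 12.7% in wild type, and the beta-glucan synthase gene bgs3 50.5% in nmt1-SEB1 against 81.0% in wild type. meu18 had 79.6% in nmt1-SEB1 against 77.7% in wild type, while its site at coding base 55 had 440 reads in nmt1-SEB1 against 45 in wild type. dli1, a meiotic dynein chain, had 277 coding reads in nmt1-SEB1 against 10 in wild type. mei4, for a meiotic transcription factor, had 35.8% in nmt1-SEB1 against 39.7% in wild type. The ligase gene SPAC12B10.01C had 51% in nmt1-SEB1 against 87.3% in wild type. gid9, of a ubiquitin ligase complex, had 85.7% in nmt1-SEB1 against 84.7% in wild type. Of the synthetases msk1 had 15.6% in nmt1-SEB1 against 2.56% in wild type, and msm1 had 27 coding reads in nmt1-SEB1 against 17 in wild type. The msk1 shares rest on 15 coding reads in nmt1-SEB1 against 10 in wild type. Past its stop codon msk1 had 81 reads in nmt1-SEB1 against 381 in wild type. In amino acid synthesis met3 had 81.7% in nmt1-SEB1 against 92.6% in wild type and lys1 32.1% and 34.6%. Of these genes rpn3 and msk1 were called higher and the others were not called or not tested.

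Among 30 genes of poly(A) and termination factors 12 had a site (40%), and of 27 tested pab2 was higher and seb1 and ppn1 were lower. seb1 itself had 3 coding reads in nmt1-SEB1 against 29 in wild type, a premature share of 0.365% (0.124 to 1.07) in nmt1-SEB1 against 1.58% (1.10 to 2.26) in wild type. Its 3 sites, at coding bases 119, 266 and 353 of 1863, had 0, 3 and 0 reads in nmt1-SEB1 and 14, 5 and 7 in wild type. pab2, for the nuclear poly(A)-binding protein, had 12.1% in nmt1-SEB1 against 1.14% in wild type, from a site with 21 reads in nmt1-SEB1 against 1 in wild type. ppn1, of the cleavage and polyadenylation complex, had 2 coding reads of 43 in nmt1-SEB1 and 17 of 38 in wild type. mpe1, a ubiquitin ligase of the same complex, had 66.3% in nmt1-SEB1 against 85.7% in wild type, with a site at coding base 13 that had 45 reads in nmt1-SEB1 against 0 in wild type. msi2 had 16.4% in nmt1-SEB1 against 11.6% in wild type, pta1 32.8% and 26.7%, and the helicase gene dbl8 5.81% and 8.06%, none of them called. hrp1, which joined the list by its symbol but encodes a CENP-A chaperone, had 5.06% in nmt1-SEB1 against 10.3% in wild type. The core genes cft1, cft2, ysh1, pla1, pfs2, yth1, iss1, ssu72, rna14 and rna15 had 0 to 8 coding reads in each library. pcf11, whose product links the complex to the polymerase, had 5 coding reads in nmt1-SEB1 against 3 in wild type, the nuclease gene dhp1 2 and 3, and the helicase gene sen1 3 and 3.

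In nuclear surveillance rrp6, for the nuclear exosome nuclease, had a share of 59.4% in nmt1-SEB1 against 28.4% in wild type and was called higher. Its main site, at coding base 246 of 2334, had 198 reads in nmt1-SEB1 against 18 in wild type, and spo20 ends 145 nt upstream of the gene. red1, of the complex that removes meiotic messages, had 86.3% in nmt1-SEB1 against 57.8% in wild type, with intervals apart (79.1 to 91.3 in nmt1-SEB1, 43.3 to 71.0 in wild type) but less than 2-fold, and a site at coding base 17 with 100 reads in nmt1-SEB1 against 13 in wild type.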

How the data were processed

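Poly(A) site reads were measured in 1 nmt1-SEB1 and 1 wild-type library. The authors deposited, per library, raw counts of reads per genomic position and strand, not normalized; reads were aligned with Bowtie2 to ASM294v2, per the submitters' processing notes, and its version and settings were not stated there. A label speaks of RPM, but the deposited values are whole numbers with unequal sums, so they were used as counts. Coordinates are 1-based and as deposited, read on the RefSeq genome, whose header names ASM294v3; no position exceeds its chromosomes. Positions mark the last aligned base: it is A at 76.4% to 79.8% of positions, and the next base is A at 0% to 3.81%. Contigs other than chromosomes I, II and III were left out.

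From these counts, clusters, RPM, ratios with exact conditional intervals and premature shares with Wilson intervals were computed (Python 3.11.15, numpy 2.4.6, scipy 1.17.1); TMM and median-of-ratios factors came from edgeR 4.0.16 in R 4.3.3. Call rules were tested on simulated data. With 1 library per group no test across replicates was run. An upstream distance runs from the neighbour's annotated end to the gene's annotated start, and neighbours that overlap that start were not counted. Named sites and genes were the 12 sites highest in mean RPM, the 10 largest and 10 smallest ratios among called sites of 50 reads, the 8 largest share differences each way among called genes with 50 reads in each library, the 6 genes with most wild-type reads among those over 50% premature there, the 2 genes with most coding reads of each list, seb1 and the poly(A) and termination factors; other genes were named after their values were seen. The sites and the 22 gene lists were chosen with earlier results of these data known, and list patterns were corrected after matching product names.  The sequence of 1 further site is not reported here.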

Additional observations from a re-analysis of the deposited data

How the results depend on the processing

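The counts of sites and of genes stayed within 1.5 times the reported ones under every alternative run except changes of the read minimum. Called sites were 621 higher and 645 lower with 5 reads summed, and 54 higher and 38 lower with 100; 695 sites remained with 20 reads. In bin 1 higher sites outnumbered lower ones, and in bin 10 lower ones higher ones, under every setting that was recomputed by bin. The ratio of coding reads, 1.21, was 1.45 without the last 100 nt before the stop codon, 1.26 without sites in or beside an A-rich stretch and 1.06 without the genes of the 3 largest sites of bin 1. Of sites with a read, 20.7% in nmt1-SEB1 against 14.3% in wild type lay in bin 1, and of site reads 42.9% and 10.9%. Some 80.3% of sites had any same-strand gene ending within 1000 nt upstream, and 49.0% a coding gene. A signal was found before 18.3% of sites in 35 nt. With reads counted to 200 nt past the gene end, 340 genes were higher and 257 lower, and without the last 100 nt 289 and 261, against 284 and 323 as reported, so the direction with more genes changed. Settings for A-rich stretches on both sides, cluster edges, introns, control elements and the 3 largest sites were chosen after seeing the data. No paired analysis was possible because each group has 1 library and the labels give no replicate numbers, and no replicate could be left out. Depth limits single sites most: the median site has 10 reads.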
